A study of Mus musculus with 4 samples.

Results

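Cwc22, Smpd3, R3hcc1, Gm35040, Gm42047 and Dqx1 are 6 of the 32285 genes listed for single cells of the embryonic mouse cerebellum. They were picked because their levels in En1/2 mutant libraries stood apart from control in several kinds of cells at once. The contrast between mutant and control therefore chose them, and its values and calls below only describe them and are no test of them. Cwc22 and Gm42047 had both mutant libraries above both controls, and Smpd3 had both below, in each of the 3 classes of cells fitted. R3hcc1 and Gm35040 did so in 2 of the classes. Dqx1 did so in none of the 3, and for it the data go against the idea of a shift that is alike in each class. Such separation is common: in a single class 20.9% to 23.5% of all genes fitted lay apart in either direction. In the same direction in all 3 classes it was 1088 of 6724 genes (16.2%).

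The cells were sorted for the red fluorescent protein tdTomato (tdT) from cerebella at E14.5. Control embryos were Atoh1-Cre/+; R26LSL-tdT/+, and conditional knockout (CKO) embryos carried in addition En1lox/lox and En2lox/lox. Both groups therefore hold the Cre driver and the reporter, and the Cre is active only in the Atoh1 lineage, which gives rise to granule cells and to excitatory neurons of the cerebellar nuclei. Each group has 2 libraries, each from pooled animals, so no value belongs to a single embryo, and the labels name neither the strain background nor the litters. Genotype, strain background, litter and day of preparation cannot be told apart in this design.

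The 6 genes have no common pathway. Cwc22 encodes a spliceosome protein that brings the helicase Eif4a3 to spliced RNA, where it becomes the core of the exon junction complex. The Cwc22 locus lies in a region of chromosome 2 that is known to differ in copy number among mouse strains. Smpd3 encodes neutral sphingomyelinase 2, which cleaves sphingomyelin to ceramide and takes part in exosome release. R3hcc1 encodes a protein with an R3H domain, a fold that binds single-stranded nucleic acids, and Dqx1 encodes a relative of the DEAH-box RNA helicases. Gm35040 and Gm42047 are long intergenic non-coding RNAs without a settled role.

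In the GRCm38 assembly, Cwc22 lies on chromosome 2 from 77881159 to 77946375 on the minus strand. Smpd3 lies on chromosome 8 from 106252548 to 106337988 on the minus strand, and Gm42047 on the same chromosome from 121833247 to 121841178 on the plus strand. R3hcc1 occupies 69697307 to 69707584 of chromosome 14 (minus strand), Gm35040 occupies 79536043 to 79560033 of chromosome 7 (plus strand), and Dqx1 occupies 83057844 to 83067318 of chromosome 6 (plus strand). None of them shares a chromosome with En1 (chromosome 1) or En2 (chromosome 5). Dqx1 shares chromosome 6 with the native Atoh1 gene, which starts at 64729125.

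For Cwc22, the only one of the 6 found in the RefSeq promoter table, the 250 bases before the RefSeq start (GRCm38.p6, chr2:77946357-77946606, minus strand) are shown because the deleted genes encode homeodomain proteins. The homeodomain core TAATTA, which reads the same on both strands, would be in capitals.
Cwc22 promoter: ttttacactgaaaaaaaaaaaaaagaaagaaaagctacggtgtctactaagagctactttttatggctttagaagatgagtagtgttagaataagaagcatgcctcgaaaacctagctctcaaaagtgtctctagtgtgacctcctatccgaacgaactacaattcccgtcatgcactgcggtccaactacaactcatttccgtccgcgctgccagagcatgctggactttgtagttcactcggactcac
These letters hold 0 matches to TAATTA, against 4.84% of 32851 promoters with at least 1 match, and their GC content is 42.8%. The absence of these letters in this window says nothing about binding elsewhere.

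Unique molecular identifiers (UMIs, counted RNA molecules) summed to 21351661 for control replicate 1, 14998150 for control replicate 2, 27138010 for CKO replicate 1 and 33709450 for CKO replicate 2. After barcodes under 500 genes, under 1000 UMIs or over 10% mitochondrial UMIs were left out, 2911, 3931, 2007 and 3697 remained. The median kept barcode had 2734 or 2122 UMIs in a control library and 5352 or 5544 UMIs in a CKO library, so depth moves with genotype; values from barcodes thinned to 1000 UMIs are given with the results they bear on. The median mitochondrial share of kept barcodes, a sign of RNA quality, also moves with it, at 5.53% and 5.66% against 3.97% and 2.66%. No doublets were removed. In sums over cells, fewer cells that express a gene and less RNA per cell cannot be told apart. Any pair of libraries shared 1 to 6 kept barcodes. En2 checked the labels: in all kept barcodes it stood at 137 and 168 CPM (UMIs of the gene per 1000000 UMIs of the sum, haemoglobin genes left out) in the controls, and at 29.0 and 19.8 CPM after the deletion. En1 overlapped between the groups, at 238 and 383 against 150 and 253 CPM. A 3′ tag can lie outside the deleted stretch, and the deleted stretch is not named in the labels.

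Barcodes were sorted into classes by a few genes. The Pax6-higher class (more Pax6 than Meis2 UMIs, granule lineage side) held 1777, 946, 1191 and 2955 barcodes in the order of libraries above. The Meis2-higher class (cerebellar nuclei side) held 589, 2273, 556 and 363, and the Gad class (at least 1 UMI of Gad1 or Gad2, genes of inhibitory neurons) held 58, 87, 50 and 50. The classes were not pure: 8 granule markers summed to 2666, 1952, 2488 and 3462 CPM in the Gad barcodes, in the same order of libraries. In Pax6-higher barcodes they summed to 3525, 3635, 3184 and 3506 CPM, more than in the Gad barcodes of each library. The same markers were higher in the Meis2-higher barcodes of the CKO libraries (2993 and 3298 CPM) than of the controls (2155 and 2048). The 9 GABAergic markers summed to 829 and 1806 CPM in the Gad barcodes of the controls against 573 and 492 CPM in those of the mutants, so the content of this class moves with genotype too. The part of these markers in the results below was not tested.

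Haemoglobin-rich barcodes, in which 7 haemoglobin genes hold at least 10% of UMIs, would be the most distant class. Only 4, 12, 3 and 0 were found in the 4 libraries. They hold 4352, 19270 and 6646 UMIs of other genes, and among these 0, 0 and 1 of Cwc22 and 1, 2 and 0 of Smpd3. For a gene with 0 UMIs in these sums, the 95% Poisson interval would still reach 848, 191 and 555 CPM. In control replicate 2 the 2 UMIs of Smpd3 gave 104 CPM (95% Poisson interval 12.6 to 375), below its 418 to 448 CPM in the other classes of that library. With 0 barcodes in CKO replicate 2, the class could not be fitted.

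In each class, both CKO libraries had more Cwc22 than either control. Its level in Pax6-higher barcodes was 128 and 85.2 CPM in control replicates 1 and 2 and 199 and 236 CPM in CKO replicates 1 and 2. In Meis2-higher barcodes it was 132 and 60.2 against 172 and 284 CPM. Gad barcodes, with only 15 to 124 UMIs of the gene per library, gave 105 and 57.5 against 197 and 285 CPM. The lowest of the 4 ratios between a CKO and a control library was a log2 of 0.38, in Meis2-higher barcodes. The fitted log2 fold change of CKO over control was 1.14 (SE 0.25) in Pax6-higher, 1.32 (SE 0.34) in Meis2-higher and 1.58 (SE 0.37) in Gad barcodes, each with n = 2 libraries a group. With barcodes thinned to 1000 UMIs it was 1.23, 1.56 and 1.58.

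Control replicates themselves differed in Cwc22. Control replicate 2 stood at 0.665 times control replicate 1 in Pax6-higher barcodes (95% counting interval 0.581 to 0.758) and at 0.457 times in Meis2-higher barcodes (0.387 to 0.539). The CKO replicates were closer, at 1.19 (1.14 to 1.24) and 1.65 (1.47 to 1.85). In Gad barcodes the same ratios were 0.549 (0.279 to 1.03) for the controls and 1.44 (1.09 to 1.91) for the CKO libraries. These intervals cover counting error only. Barcodes that met none of the class rules (483, 613, 207 and 329) gave the same order of libraries as the Meis2-higher ones, with Cwc22 at 126 and 64.6 CPM in the controls and 287 and 366 CPM in the CKO libraries.

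Near copies can take reads from Cwc22. Of the 31-base words in the last 500 bases of its transcripts, 11.7% occur in 10 other genes, among them Gm13691, Gm13693 and Gm13694, further along chromosome 2. Those copies were listed at 0 UMIs in the kept barcodes of every library. Gm13727, which overlaps the last 309 bases of Cwc22 on the same strand, had 0 UMIs in either control but 2 and 8 UMIs in the CKO libraries. The deposited counts alone do not tell reads of such copies from reads of Cwc22 itself.

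Smpd3 was lower in both CKO libraries in each class, and the CKO libraries were far from each other. Its level in Pax6-higher barcodes was 300.1 and 430.1 CPM in the controls and 74.5 and 230.4 CPM in the CKO libraries. Meis2-higher barcodes gave 389 and 448 against 85.4 and 276 CPM, and Gad barcodes gave 296 and 418 against 87.0 and 202 CPM. CKO replicate 1 was thus the lowest library everywhere, while CKO replicate 2 lay nearer to the controls.

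**Figure D1:**
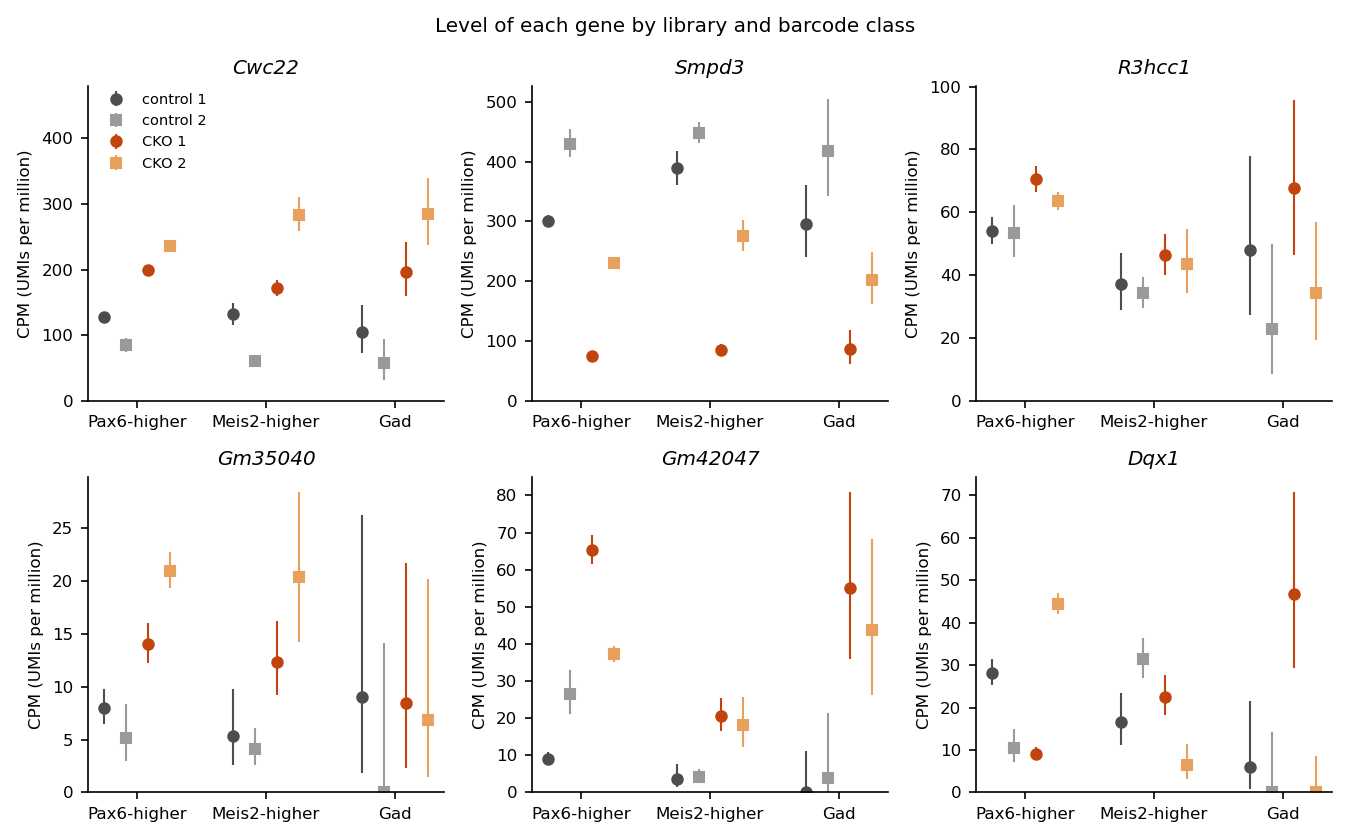
Level of each gene in CPM (vertical axes, from 0, before any scaling factor) in 3 barcode classes (horizontal axes), with grey symbols for control libraries, orange ones for CKO libraries and bars for 95% Poisson intervals of the counts. Cwc22 has both CKO libraries above both controls in each class, Smpd3 has CKO replicate 1 lowest at 74.5 to 87.0 CPM, and Dqx1 has no order of libraries that holds between classes.

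The fitted log2 fold change of Smpd3 was close in the 3 classes, at -1.14 (SE 0.43) in Pax6-higher, -1.22 (SE 0.41) in Meis2-higher and -1.27 (SE 0.38) in Gad barcodes. Its size rests on CKO replicate 1: without that library it was -0.54, -0.60 and -0.76, and without CKO replicate 2 it was -2.14, -2.21 and -1.96. Thinned barcodes gave -1.05, -1.03 and -0.84. The ratio of CKO replicate 2 to CKO replicate 1 was 3.09 (95% counting interval 2.91 to 3.29) in Pax6-higher, 3.23 (2.81 to 3.71) in Meis2-higher and 2.32 (1.59 to 3.45) in Gad barcodes. It was 2.70 (2.06 to 3.59) in barcodes without a class. So the pattern seen in every class for Smpd3 includes a gap between 2 libraries of one genotype, and the controls showed a smaller gap of 1.43, 1.15 and 1.41 in the same order of classes.

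**Figure D2:**
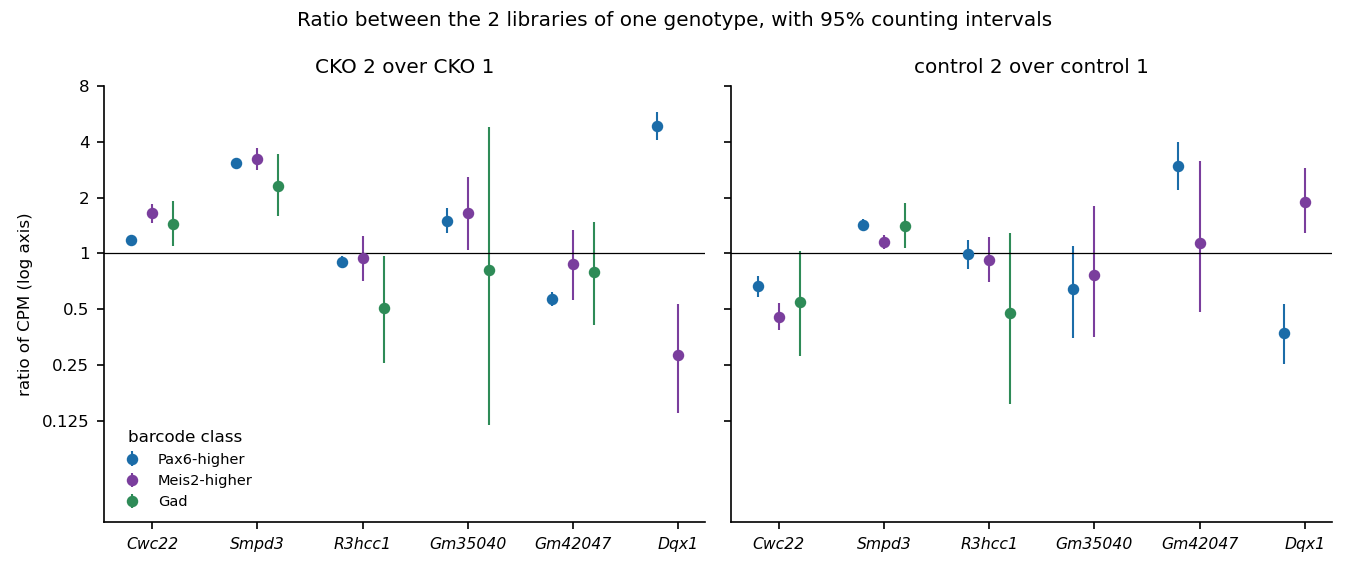
Ratio of CPM between the 2 libraries of one genotype (vertical log axes) for each gene, by barcode class (colours), with 95% exact counting intervals; ratios with under 3 UMIs in a library are left out. Smpd3 stands at 3.09, 3.23 and 2.32 between the CKO libraries, Cwc22 stands below 1 between the controls, and Dqx1 changes side between classes in both panels.

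Over the 6724 genes fitted in all 3 classes, 35 (0.521%) had the CKO libraries at least 2-fold apart in the same direction in each class, and Smpd3 was the only one of the 6 among them. The Y-linked genes Ddx3y and Uty and the X-inactivation transcript Xist were also among the 35 and were named after their values were seen, so RNA of sex-linked genes moves with this gap. In Pax6-higher barcodes, CKO replicate 2 exceeded CKO replicate 1 by 1.97 for Ddx3y and differed from it by -1.72 for Xist on the scale of log2(CPM + 1). Between the control libraries 24 genes (0.357%) met the same rule, none of the 6. Ddx3y, Uty and Xist were among these too, with control replicate 2 at -1.73 for Ddx3y and 10.74 for Xist relative to control replicate 1. Smpd3 was the higher in CKO replicate 2, which had less Xist than its partner, and in control replicate 2, which had more. Whether the sex of the pooled embryos bears on the Smpd3 gap was not tested.

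R3hcc1 had a small difference. In Pax6-higher barcodes it stood at 54.0 and 53.5 CPM in the controls and at 70.6 and 63.5 CPM in the CKO libraries. Meis2-higher barcodes gave 37.2 and 34.3 against 46.3 and 43.7 CPM. In both classes the groups did not overlap, and the ratios of control replicate 2 to control replicate 1 were 0.989 and 0.921. Gad barcodes held only 6 to 32 UMIs per library, and there the groups overlapped, with 47.9 and 23.0 against 67.9 and 34.5 CPM. The log2 fold changes were 0.44 (SE 0.20), 0.38 (SE 0.21) and 0.53 (SE 0.48) in the same order, the smallest shifts among the genes that kept a direction in Pax6-higher and Meis2-higher barcodes, and thinned barcodes of these classes gave 0.23 in both.

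Gm35040 was low and higher in the CKO libraries in the larger classes. Its level in Pax6-higher barcodes was 8.01 and 5.12 CPM in the controls and 14.02 and 21.0 CPM in the CKO libraries. Meis2-higher barcodes gave 5.32 and 4.09 against 12.3 and 20.4 CPM. The log2 fold changes were 1.46 (SE 0.30) and 1.82 (SE 0.40). In Gad barcodes the gene had 3 and 0 UMIs in the controls against 4 and 3 UMIs in the mutants, too few for the fit, and its CPM there did not separate the groups. None of the 31-base words at the end of its transcript occur in another gene, as was also found for Smpd3 and R3hcc1.

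Gm42047 was higher in the CKO libraries in each class, by differing amounts. Pax6-higher barcodes held it at 8.96 and 26.6 CPM in the controls and 65.4 and 37.3 CPM in the CKO libraries. Meis2-higher barcodes gave 3.72 and 4.26 against 20.6 and 18.1 CPM. Gad barcodes had 0 and 1 UMI in the controls against 26 and 19 UMIs in the mutants. The log2 fold change was 1.79 (SE 0.44) in Pax6-higher and 2.27 (SE 0.35) in Meis2-higher barcodes. The Pax6-higher value was 1.12 when control replicate 1 was dropped, and it was 2.65 when control replicate 2 was. For the Gad barcodes the summed UMIs, 45 in CKO and 1 in control, gave a ratio of 29.5 with a 95% counting interval of 5.04 to 1192, and the fitted value of 4.66 depends on the prior count used for so few molecules and ran from 3.62 to 7.38 with 1 library left out.

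Control replicate 2 was 2.96 times control replicate 1 for Gm42047 in Pax6-higher barcodes (95% counting interval 2.19 to 4.00). In Meis2-higher barcodes the same ratio was 1.15 (0.482 to 3.14). The gap between the groups in Pax6-higher barcodes was thus narrow on the side of control replicate 2, where the lowest log2 ratio of a CKO to a control library was 0.49. Of its terminal 31-base words, 61.1% occur in 9 other genes, including Gm47939, Gm43549, Gm48362 and Gm47761, and the deposited counts alone do not tell its reads from theirs. These 4 had 0 to 13 UMIs each per library. Sos2, in which 8.51% of the words occur, had 357 and 302 UMIs in the controls against 466 and 675 in the CKO libraries. These are raw counts, from sums of 14839308 and 10566708 UMIs in the controls and 21422114 and 31877047 UMIs in the CKO libraries. They therefore do not show a higher level of Sos2 in the mutants.

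Dqx1 did not behave as the others. Pax6-higher barcodes gave 28.2 and 10.6 CPM in the controls and 9.16 and 44.4 CPM in the CKO libraries, so the CKO libraries held both the highest and the lowest value. Meis2-higher barcodes gave 16.5 and 31.4 against 22.5 and 6.41 CPM, the reverse order of the CKO libraries. The log2 fold changes were 0.51 (SE 0.59) and -0.62 (SE 0.47). Gad barcodes had 2 and 0 UMIs in the controls against 22 and 0 UMIs in the mutants. CKO replicate 2 stood at 4.84 times CKO replicate 1 in Pax6-higher barcodes and at 0.284 times in Meis2-higher ones, with 95% counting intervals of 4.08 to 5.79 and 0.137 to 0.532. No order of the libraries held for Dqx1 in all of the classes.

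The UMIs of Dqx1 came from few barcodes. In all, 86, 91, 44 and 126 barcodes had a UMI of the gene in the order of libraries above, with 376, 234, 307 and 1320 UMIs between them. The 10 highest barcodes held 71.5%, 60.7%, 82.1% and 59.2% of them, and single barcodes reached 93, 51, 55 and 150 UMIs. Barcodes with at least 5 UMIs numbered 11, 6, 13 and 40. They fell in the Pax6-higher, Meis2-higher and Gad classes and in none. With them left out, a choice made after seeing the data, the log2 fold change in Pax6-higher barcodes turned from 0.51 to -1.43.

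**Figure D3:**
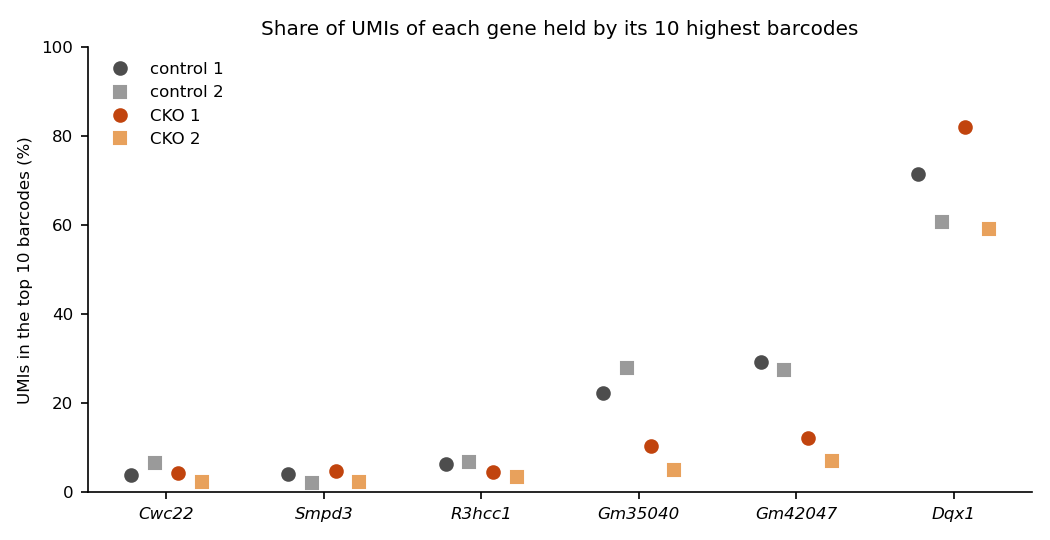
Share of the UMIs of each gene (vertical axis, %) that its 10 highest barcodes hold in each library (grey: control, orange: CKO). Dqx1 stands at 59.2% to 82.1%, Cwc22, Smpd3 and R3hcc1 at 2.20% to 6.73%, Gm35040 at 5.13% to 28.0% and Gm42047 at 6.99% to 29.3%.

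The 10 highest barcodes held 2.42% to 6.55% of the Cwc22 UMIs, 2.20% to 4.92% of the Smpd3 UMIs and 3.41% to 6.73% of the R3hcc1 UMIs. For the low genes the share was larger where UMIs were few: Gm35040 had 22.2% and 28.0% in the controls against 10.4% and 5.13% in the mutants, and Gm42047 had 29.3% and 27.4% against 12.2% and 6.99%. Of the 31-base words in the last 500 bases of Dqx1, 12.8% occur in 1186 other genes. Whether this bears on the few barcodes was not tested.

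Counted over classes, both CKO libraries lay above both controls in Pax6-higher barcodes for 4 of the 6 genes and below them for 1, where 23.0% and 23.5% of all 13876 genes fitted did so. In Meis2-higher barcodes the counts were again 4 and 1, against 21.9% and 22.6% of 11711 genes. Of the 4 members that entered the Gad fit, 2 lay above and 1 below, against 20.9% and 21.2% of 6736 genes. In barcodes with no class 4 lay above and 1 below, against 16.8% and 16.4% of 9730 genes, and here Dqx1 was among the 4 and R3hcc1 overlapped. Of the 6724 genes in all 3 fits, 1088 (16.2%) kept the groups apart in the same direction in each class, and 33 (0.491%) did so with at least a 2-fold change in each. Cwc22, Smpd3 and Gm42047 were among the 33, as was the deleted gene En2. The genes were chosen on this contrast, so these counts only describe them.

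In edgeR's quasi-likelihood test with Benjamini-Hochberg adjustment, 9 of 13876 genes (0.0649%) were called in Pax6-higher barcodes, 21 of 11711 (0.179%) in Meis2-higher barcodes and 27 of 6736 (0.401%) in Gad barcodes. Over all kept barcodes 0 of 14703 genes (0%) were called, with 1678 at an unadjusted p under 0.05, and DESeq2 called 143. Of genes called as higher in CKO there were 13 (0.111%) in Meis2-higher and 24 (0.356%) in Gad barcodes. Gm42047 was the only member called by edgeR, with an adjusted p of 0.0324 in Meis2-higher and 0.0252 in Gad barcodes, and nothing is read from it because the gene was chosen on this contrast. Cwc22, Smpd3, R3hcc1, Gm35040 and Dqx1 did not pass in any of the 3 classes in which they were fitted, with adjusted p from 0.0580 to 0.775. The calls depend on the setting, and nothing is read from the member calls that follow either, since the members were chosen on this contrast. DESeq2 called Cwc22 in all kept (adjusted p 0.0166), Pax6-higher (0.00541) and Meis2-higher barcodes (0.00741), Gm35040 in all kept (0.00702) and Pax6-higher barcodes (0.0334), and Gm42047 in all kept barcodes (1.95e-07); it gave Gm42047 no adjusted p in Meis2-higher and Gad barcodes. Gm42047 was called in 8 of 13 alternatives in Meis2-higher and 6 of 10 in Gad barcodes, counting among the others DESeq2, without an adjusted p.

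**Figure D4:**
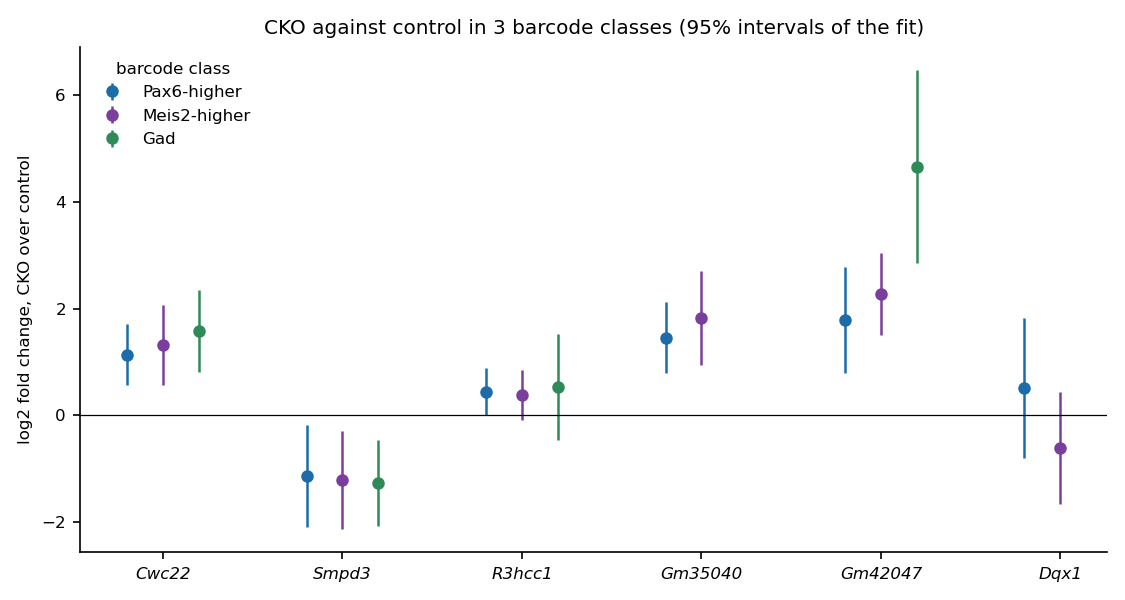
Fitted log2 fold change of CKO over control (vertical axis) for each gene in up to 3 barcode classes (colours), with 95% intervals of the fit on 2 libraries a group. Smpd3 lies at -1.14, -1.22 and -1.27, Cwc22 at 1.14, 1.32 and 1.58, and the Gm42047 value in Gad barcodes, 4.66, rests on 1 control UMI; Dqx1 and Gm35040 had too few UMIs for the Gad fit.

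Whether the shift differs between classes was fitted with the library as a block, so that each library is its own reference. Smpd3 had the narrowest differences: its log2 fold change in Meis2-higher barcodes was -0.04 from that in Pax6-higher barcodes (95% interval -0.43 to 0.36), and that in Gad barcodes was -0.04 from it (-0.54 to 0.45). For Cwc22 the differences were 0.20 (-0.22 to 0.61) and 0.50 (-0.09 to 1.09). For R3hcc1 they were -0.06 (-0.53 to 0.41) and 0.12 (-0.71 to 0.96). Intervals of this width leave room for shifts that differ by up to 1.45-fold for Smpd3 and 2.13-fold for Cwc22, and a p that misses the threshold does not show that the classes act alike.

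For Gm42047 the shift in Meis2-higher barcodes was larger by 0.81 (95% interval 0.02 to 1.60) and in Gad barcodes by 3.18 (1.05 to 5.31). Its unadjusted p was 0.00612, where 808 genes (6.58%) were under 0.05, and its adjusted p, over the 12286 genes of this edgeR fit, was 0.340, with 0.0686 to 1 under the other settings. The Meis2-higher difference of Gm42047 turned to -0.22 without control replicate 2 and to -0.23 with barcodes thinned to 1000 UMIs. Gm35040 differed by 0.25 (-0.63 to 1.13) and -0.77 (-2.97 to 1.43), and Dqx1 by -0.76 (-2.30 to 0.77) and 2.65 (-1.73 to 7.03). None of the 6 was called in this test, in which 33 genes (0.269%) were. Dqx1 became a call in other settings, with an adjusted p of 0.0197 with no filter on low counts, 7.6e-07 without control replicate 1, 3.92e-06 with CKO replicate 1 left out and 4.69e-05 when CKO replicate 2 was dropped. Its Meis2-higher difference turned to 0.79 in the last and to 0.49 without control replicate 2.

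The level of a gene between classes, within a library, was not used to choose the genes and was tested over the 3 classes together. Gm42047 was lower in Meis2-higher than in Pax6-higher barcodes by 1.75 on the log2 scale (SE 0.21, edgeR adjusted p 2.07e-06), in 4 of 4 libraries. R3hcc1 was lower there by 0.65 (SE 0.11, adjusted p 0.000122), also in 4 of 4 libraries. The R3hcc1 call was lost when each barcode was thinned to 1000 UMIs, with a difference of -0.48 and an adjusted p of 0.0949, against 1.92e-08 to 0.00102 under the other settings. The Gm42047 call held in all 11 alternatives. In this fit 5905 of 12286 genes (48.1%) were called, so a difference in level between these classes is common.

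Cwc22, Smpd3, Gm35040 and Dqx1 were not called in that test, although Gm35040 was with no filter on low counts (adjusted p 0.0200) and Dqx1 without CKO replicate 1 (adjusted p 0.0317). Their Meis2-higher levels differed from the Pax6-higher ones by -0.16 (95% interval -0.38 to 0.06), 0.15 (-0.04 to 0.34), -0.29 (-0.70 to 0.11) and -0.03 (-0.96 to 0.90) on the log2 scale. In Gad barcodes Gm35040 differed from Pax6-higher ones by -1.08 (95% interval -1.94 to -0.21), and the test over the 3 classes gave it an adjusted p of 0.0691. For Cwc22, Smpd3 and Dqx1 the Gad differences were -0.14 (-0.43 to 0.14), -0.11 (-0.34 to 0.12) and -0.60 (-2.39 to 1.18). The intervals for Meis2-higher barcodes hold differences of up to 1.30-fold for Cwc22 and 1.26-fold for Smpd3.

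Gm42047 was higher in barcodes with RNA of cell cycle genes. In all, 6 genes of dividing cells (Birc5, Cdk1, Cenpf, Mki67, Top2a, Ube2c) marked the cycle: barcodes with 2 or more of their UMIs were set against barcodes with 0, a split made after seeing the data. Within Pax6-higher barcodes Gm42047 stood at 13.8, 49.3, 83.2 and 53.6 CPM in the former and at 3.42, 10.8, 21.1 and 12.7 CPM in the latter, in the order of libraries above. The ratio lay between 3.95 and 4.58 in the 4 libraries. The former barcodes are also deeper, with median UMIs of 5078, 2789, 17446 and 12919 against 2651, 2151, 4014 and 3238. They made up 35.7% and 32.1% of the Pax6-higher barcodes of the controls against 53.7% and 42.4% of those of the mutants.

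**Figure D5:**
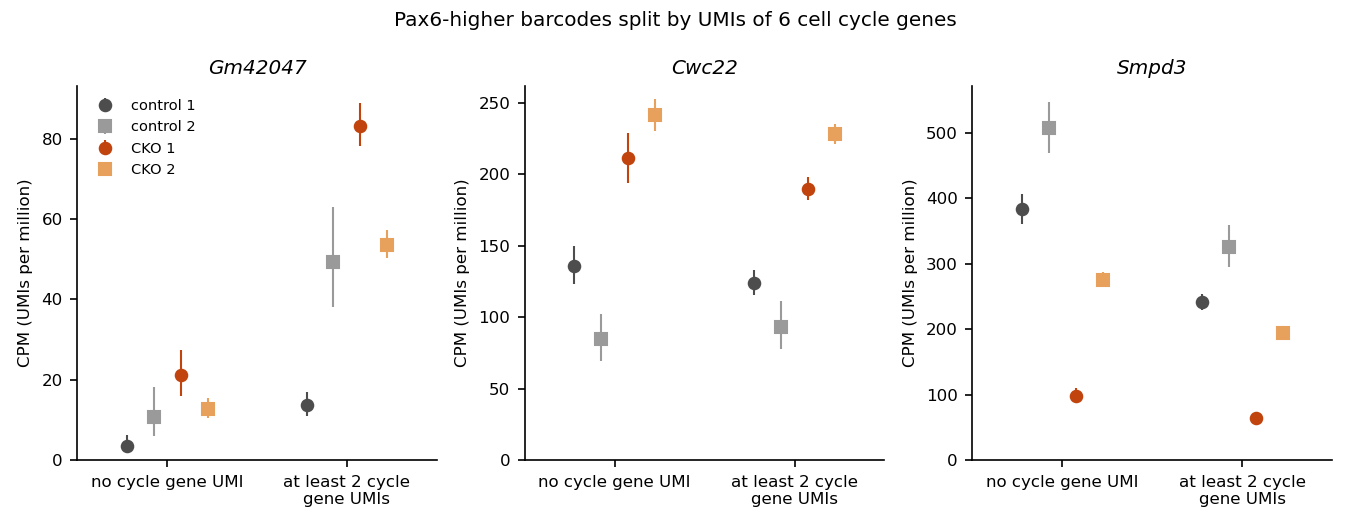
CPM (vertical axes) in Pax6-higher barcodes without a UMI of 6 cell cycle genes and with at least 2 (horizontal axes), per library, with 95% Poisson intervals. Gm42047 lies between 3.42 and 21.1 CPM in the former and between 13.8 and 83.2 CPM in the latter, Cwc22 has ratios of 0.900 to 1.10 and Smpd3 of 0.630 to 0.705 between them.

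The order of the libraries held in both sets of barcodes for Gm42047, with control replicate 1 lowest and CKO replicate 1 highest. The counting intervals of control replicate 2 and CKO replicate 2 overlapped in both. For Cwc22 the level in barcodes with at least 2 such UMIs over that in barcodes with 0 had ratios of 0.900 to 1.10. Smpd3 was lower in the former in each library, with ratios of 0.630 to 0.705, and R3hcc1 gave 0.866 to 1.16.

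Genes near the 6 were compared next, since position was not used to choose them. Of 162 genes that start within 1000000 bases of a member and were fitted in all kept barcodes, edgeR called 0 and DESeq2 0, with 15 at an unadjusted p under 0.05. In Pax6-higher barcodes 0 of 152 were called by either tool (12 at an unadjusted p under 0.05), and in Meis2-higher barcodes 0 of 133 (18 at an unadjusted p under 0.05). In Gad barcodes 1 of 72 was called by edgeR and 0 by DESeq2 (7 at an unadjusted p under 0.05). Over all genes the share at an unadjusted p under 0.05 was 11.4%, 9.97%, 14.4% and 10.7% in these fits. Of all genes, edgeR called 0%, 0.0649%, 0.179% and 0.401% in these fits. Its count of 0 in all kept barcodes was therefore fixed, and counts of 0 in the classes say little. The neighbour called in Gad barcodes was Prc1, a mitotic spindle gene 758 kb from Gm35040. Its edgeR adjusted p was 0.0325 at a log2 fold change of 2.28. The median log2 fold change of the neighbours was 0.05, 0.01, -0.0028 and -0.21 in the same order of fits, against 0.01, -0.01, -0.01 and 0.00 over all genes.

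Gm10629, a non-coding RNA on the opposite strand within Smpd3, had 45 and 42 UMIs in the control libraries against 15 and 55 UMIs in the mutants. In CPM of all kept barcodes this was 3.03 and 3.97 against 0.700 and 1.73. Both CKO libraries thus lay below both controls, as they did for 23.8% of 14703 genes. Its log2 fold change in all kept barcodes was -1.35 (SE 0.53), with an edgeR adjusted p of 0.436. CKO replicate 1 was again the lowest library, in UMIs and in CPM. Whether its reads are those of Smpd3 was not tested. Prmt7 overlaps the end of Smpd3 by 247 bases on the opposite strand.

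Partners of the members were listed by function. Of 25 exon junction complex and spliceosome partners of Cwc22, 0 were called by edgeR or DESeq2 in any fit, with 2, 0, 1 and 1 at an unadjusted p under 0.05 in all kept, Pax6-higher, Meis2-higher and Gad barcodes. Their median log2 fold change was 0.26, 0.25, 0.14 and 0.10 in these fits. Over all genes the share at an unadjusted p under 0.05 was 11.4%, 9.97%, 14.4% and 10.7%. The share of all genes called by edgeR was 0%, 0.0649%, 0.179% and 0.401%, so counts of 0 in these lists say little. The median log2 fold change of all genes was 0.01, -0.01, -0.01 and 0.00. Among 27 sphingomyelin and ceramide enzymes related to Smpd3, 14 to 24 were fitted and 0 were called by either tool, with medians of -0.24, -0.21, -0.14 and -0.19 and at most 2 at an unadjusted p under 0.05.

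Of 15 DEAH-box relatives of Dqx1, 11 to 15 were fitted and 0 were called by either tool. Their medians were 0.02, -0.04, -0.20 and -0.41, with 1 to 2 at an unadjusted p under 0.05. The shares and medians over all genes are those given with the lists above. Of 9 other R3H domain genes, 6 to 9 were fitted and edgeR called 0, with at most 1 at an unadjusted p under 0.05. DESeq2 called 1 in Meis2-higher barcodes, Arpp21, which codes for a regulator of neuronal RNA and had an edgeR log2 fold change of 1.10 there.

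Genes most like each member were sought by Pearson correlation of log2(CPM + 1) over the 12 sums of 3 classes by 4 libraries, among 10458 genes. The sums share libraries and depth, so these are descriptions. Smpd3 was closest to Slc38a2, a glutamine transporter (0.982), and Ino80d, a subunit of a chromatin remodeller (0.968). Slc38a2 stood at 594 and 880 CPM in the controls and at 236 and 510 CPM in the CKO libraries in Pax6-higher barcodes, so CKO replicate 1 was lowest for it too. Cwc22 was closest to Tspan9 (0.948) and Use1 (0.933), R3hcc1 to Ppil3 (0.981) and Mrpl35 (0.966), and Gm35040 to Mtpn (0.966) and Pak2 (0.942). Gm42047 was closest to Mrps23 (0.926) and Rnd2 (0.915), and Dqx1 to Dnajb4 (0.938) and Rnf6 (0.906). No member was among the 2 closest of another, and between members the highest value was 0.777, for Cwc22 and Gm35040.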

How the data were processed

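Cells sorted for tdTomato from 2 control and 2 CKO cerebellar samples were measured by 10x Genomics 3′ sequencing. The deposited values are raw counts of UMIs per gene and barcode, made by the authors with Cell Ranger 5.0.0 per the file headers, on mm10 per the submitters' processing notes. The annotation release is not given in the sources used here, and neither is a doublet removal step; no doublets were removed here. Positions come from GENCODE M21 (GRCm38), where 32158 of 32285 listed IDs were found, and the promoter from RefSeq.

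Kept barcodes had 500 genes or more, 1000 UMIs or more and no more than 10% of UMIs from mitochondrial genes. Classes were taken in the order haemoglobin-rich, Gad, Pax6-higher, Meis2-higher. UMIs were summed per library and class and tested, without the 7 haemoglobin genes, with the quasi-likelihood F test of edgeR 4.0.16 in R 4.3.3, after filterByExpr and with TMM factors. Tests are two-sided, p-values are adjusted by Benjamini-Hochberg over all genes fitted, and called means an adjusted p under 0.05. DESeq2 1.42.0 was the alternative tool. CPM divide by the summed UMIs of a class before TMM factors. Counts of genes with groups or libraries apart, and the values of Ddx3y and Xist, use CPM after these factors. Without the factors the median log2 fold change of all genes moved from 0.01 to -0.14 in all kept barcodes. The test of shifts between classes and the test of levels had the library as a block. A class needed 20 barcodes in every library, so 3 classes and 12 sums were fitted in place of the planned 4 classes. The scripts were tested on simulated data. Intervals of counts are exact Poisson, and those of ratios are exact Clopper-Pearson, at 95%; they cover counting error only. Cells are not replicates. In the fits of CKO against control, p-values rest on the spread between 2 libraries a group, moderated across genes. An exact permutation test of 2 against 2 cannot go below 0.333. In the tests of shifts and levels between classes, p-values rest on how far differences between classes vary from library to library.

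The named genes are the 6, En1 and En2, called genes within 1000000 bases of a member, the 2 genes most like each member with a mean of at least 5 CPM, and genes of the related lists called by either tool. Genes that overlap a member or share its sequence, and Ddx3y, Uty and Xist, were named outside this rule, after their values were seen. The 6 genes, the lists and the classes were chosen with earlier results of these data known. Alternatives tried were DESeq2, no filter on low counts, no TMM factors, each library left out, a replicate block, intact barcodes (4000 UMIs or more, 5% mitochondrial or less), barcodes thinned to 1000 UMIs, no top 2% of barcodes by UMIs (where doublets would lie), haemoglobin genes kept, stricter classes and other windows. Splits by cell cycle genes, the leaving out of barcodes with at least 5 Dqx1 UMIs and a class of unclassified barcodes were added after seeing the data.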

Additional observations from a re-analysis of the deposited data

Results flagged for a closer look

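For the barcodes that the filters left out, which no comparison above used, the share of all genes whose groups separate was not computed. The values in these barcodes only describe the members. Among those over 10% mitochondrial UMIs, Cwc22 stood at 141 and 72.0 CPM in control replicates 1 and 2 and at 303 (302.955) and 454 CPM in CKO replicates 1 and 2, so the lower CKO library was above both controls. Gm42047 there had 11.7 and 16.9 CPM against 50.9 (50.8651) and 63.1 CPM. Gm35040 had 6.66 and 1.47 CPM against 7.64 (7.63908) and 18.1 CPM, with 33 UMIs behind the higher control and 41 behind the lower CKO value.

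Among barcodes under 500 genes or 1000 UMIs, Cwc22 had 92.2 and 66.5 CPM against 159 (158.95) and 247 CPM. Gm42047 had 1 to 6 UMIs per library there, at 3.90 and 3.32 against 19.9 and 13.2 CPM. Gm35040 had 15 and 2 UMIs in the controls against 6 and 9 in the CKO libraries, at 9.74 and 6.65 against 19.9 and 19.9 CPM. These barcodes come from the same libraries as the kept ones and are no independent samples. Smpd3 was 414 and 483 against 150 and 316 CPM in the barcodes of high mitochondrial share, again with CKO replicate 1 lowest. In the barcodes under 500 genes or 1000 UMIs its groups overlapped, at 199 and 319 against 129 and 331 CPM, with CKO replicate 2 highest. R3hcc1 overlapped in both sets, at 35.3 and 36.6 against 31.9 and 46.4 CPM in the barcodes of high mitochondrial share. In barcodes under 500 genes or 1000 UMIs it stood at 55.2 and 46.5 against 62.9 and 50.7 CPM. Dqx1 overlapped in the former set, at 18.2 and 22.4 against 8.38 and 39.2 CPM. In the latter its CKO libraries were below both controls, at 27.9 and 36.6 against 13.2 and 19.9 CPM, with 4 and 9 UMIs in the CKO libraries.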

How the results depend on the processing

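For the members, Cwc22, Smpd3, Gm35040 and Gm42047 kept the direction of their shift in each fitted class under every alternative in which they were fitted. Dqx1 turned sign in all kept barcodes without CKO replicate 2, without its barcodes of 5 or more UMIs and with thinning, in Pax6-higher barcodes without CKO replicate 2 and without its barcodes of 5 or more UMIs, and in Meis2-higher barcodes without control replicate 2 and with the stricter class. R3hcc1 turned to -0.02 in Gad barcodes without CKO replicate 1. The cause of these and the following moves was not tested.

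The counts of called genes moved more. DESeq2 called 143 genes in all kept, 80 in Pax6-higher, 173 in Meis2-higher and 9 in Gad barcodes, and 11 for the difference between classes, and with no filter on low counts the numbers were 771, 337, 531, 128 and 88. Leaving out a replicate gave 0 to 1489 calls in all kept barcodes, 8 to 53 in Pax6-higher, 2 to 993 in Meis2-higher and 32 to 317 in Gad barcodes, and 28 to 385 for the difference between classes; the highest came without control replicate 1, or without CKO replicate 2 in Meis2-higher barcodes. Pax6-higher calls were 46 without CKO replicate 2, and Meis2-higher calls were 2 without CKO replicate 1, 243 without control replicate 1 and 103 without control replicate 2. Gad calls were 92 and calls for the difference were 78 without CKO replicate 1. Where a group kept 1 library, its spread was taken to be that of the other group. With a replicate block the counts were 0 in Pax6-higher, 207 in Meis2-higher and 8 in Gad barcodes; same-numbered libraries did not deviate together (correlations of -0.29 to -0.06), so the libraries share only a number. Thinning to 1000 UMIs gave 3, 12 and 0 calls in the same order and 2810 for levels. Pax6-higher calls were 5 in intact barcodes, 19 without the top 2% and 4 with the stricter class, and Meis2-higher calls were 56 with the stricter class. The difference between classes had 19 calls without the top 2%. Gad calls were 9 without TMM factors. Of the settings added later, at least 2 cycle gene UMIs gave 1 call in all kept and 1 in Pax6-higher barcodes, and Meis2-higher calls were 6 with no cycle gene UMI and 1 without the high Dqx1 barcodes. Of neighbours in Gad barcodes, 0 were called within 250000 bases and 2 within 5000000.

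Not run, for want of 20 barcodes in each library, were all fits of haemoglobin-rich barcodes, intact and stricter Gad barcodes, and the tests between classes with intact or stricter classes. Gad values rest on 2 libraries a group and, for Cwc22, 15 to 124 UMIs.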
